A study of Mus musculus with 3 samples.

Results

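The genes described here are those of the main plasma membrane and lysosomal amino acid transporter families of the mouse, measured in 3 kinds of stromal cell sorted from the mesenteric lymph node. Members were taken by name, as every gene on the array whose symbol begins with Slc1a, Slc3a, Slc6a, Slc7a, Slc36a, Slc38a or Slc43a followed by a digit. This gave 61 genes with 109 probes, out of 28076 genes and 41156 probes on the array. The rule used no measured value. One of the 61, Slc7a6os, is the opposite-strand neighbour of Slc7a6 and not a transporter, and it is kept in all counts because the rule takes it by name. The node of wild-type C57BL/6NCrl mice was digested with collagenase, cells bearing CD45 were removed magnetically, and cells lacking CD45 and CD24 were sorted by gp38 and CD31. Fibroblastic reticular cells (FRC, gp38+ and CD31-) form the fibre scaffold of the node, lymphatic endothelial cells (LEC, gp38+ and CD31+) line the lymph channels, and the blood endothelium (BEC, gp38- and CD31+) lines its vessels. Age, sex, and the number of mice or sorts behind each RNA are not given in the sources used here, and the labels give a mean purity of 88% for the sorted subsets. Each population was hybridised to 1 array, 3 arrays in all, so no difference has a replicate check and no test between populations was possible.

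Amino acid transporters fall into families by fold and by the ions they couple to. The heteromeric carriers pair an SLC7 light chain, which does the transport, with an SLC3 heavy chain, which brings it to the membrane. SLC1 carriers take up glutamate and aspartate or exchange small neutral amino acids, SLC38 carriers bring in glutamine and other neutral amino acids with sodium, SLC36 carriers move small amino acids with protons, SLC43 carriers let large neutral amino acids pass by facilitated diffusion, and SLC6 carriers move GABA, glycine, taurine, creatine and monoamines with sodium and chloride. In lymph node stroma these carriers feed protein and matrix synthesis, glutathione synthesis and, in endothelium, nitric oxide synthesis from arginine.

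A level below is the scanner's processed intensity on a log2 scale, less the 75th percentile of its array, so that 0 is the brightness of a probe at that percentile. The lowest level that counted as well above background was -4.34 (FRC), -4.20 (LEC) and -4.38 (BEC). Replicate spots of a probe had a median SD of 0.05 to 0.06, which covers spot error only. The response to spiked-in RNA was flatter on the FRC array (slope 0.821) than on the BEC (0.919) and LEC (1.00) arrays per the file headers, so a log2 step need not stand for the same RNA ratio on each. In sorted bulk RNA, fewer cells of a type and less RNA per cell cannot be told apart. The marker lists followed the labels. Of 12 FRC markers, 9 were at least 4-fold higher in FRC than in LEC and 10 than in BEC. Of 9 LEC markers, 9 passed 4-fold over FRC and 8 over BEC, and of 10 BEC markers, 10 passed it over FRC and 8 over LEC. Markers of other populations were also present at lower levels, including Ccl19 at 4.47 in LEC and 2.42 in BEC against 8.21 in FRC. Each endothelial array also carried markers of the other. Set against FRC, 8 of the 9 LEC markers were called in BEC, and 8 of the 10 BEC markers were called in LEC. Glycam1, a BEC marker, read 7.78 in LEC and 9.49 in BEC, and Lyve1, a LEC marker, 3.09 in BEC and 6.87 in LEC. The part of this shared signal in the LEC and BEC levels below was not tested. The summed intensity of 14 leukocyte markers was 4228 (FRC), 4792 (LEC) and 8195 (BEC). Summed intensities here and below are not scaled between arrays, whose 75th percentiles were 386.8 (FRC), 267.9 (LEC) and 360.9 (BEC). A sum also leans on its brightest genes. Of the 13 leukocyte markers compared between BEC and FRC, 3 (Ptprc, Cd79a and Ighm) passed 4-fold in BEC (all genes 6.59%).

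The stroma of the node expressed most of these transporters. A probe well above background was found for 49 of the 61 members on at least 1 array. On all 3 arrays it was found for 37 members (60.7%, against 55.7% of all genes), and for 12 (19.7%, against 31.8%) on none. By array the number was 47 in FRC (77.0%, all genes 62.1%), 42 in LEC (68.9%, all genes 61.3%) and 41 in BEC (67.2%, all genes 62.1%). Slc6a2, Slc6a15, Slc7a3 and Slc7a10 passed on the FRC array alone and Slc7a2 on the BEC array alone, and no member passed on the LEC array alone. Slc7a2, Slc7a3 and Slc6a15 did so only just above the lowest level that counts, at -4.11, -4.09 and, for the passing Slc6a15 probe, -4.02, while Slc6a2 and Slc7a10 were clear of it in FRC.

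**Figure D1:**
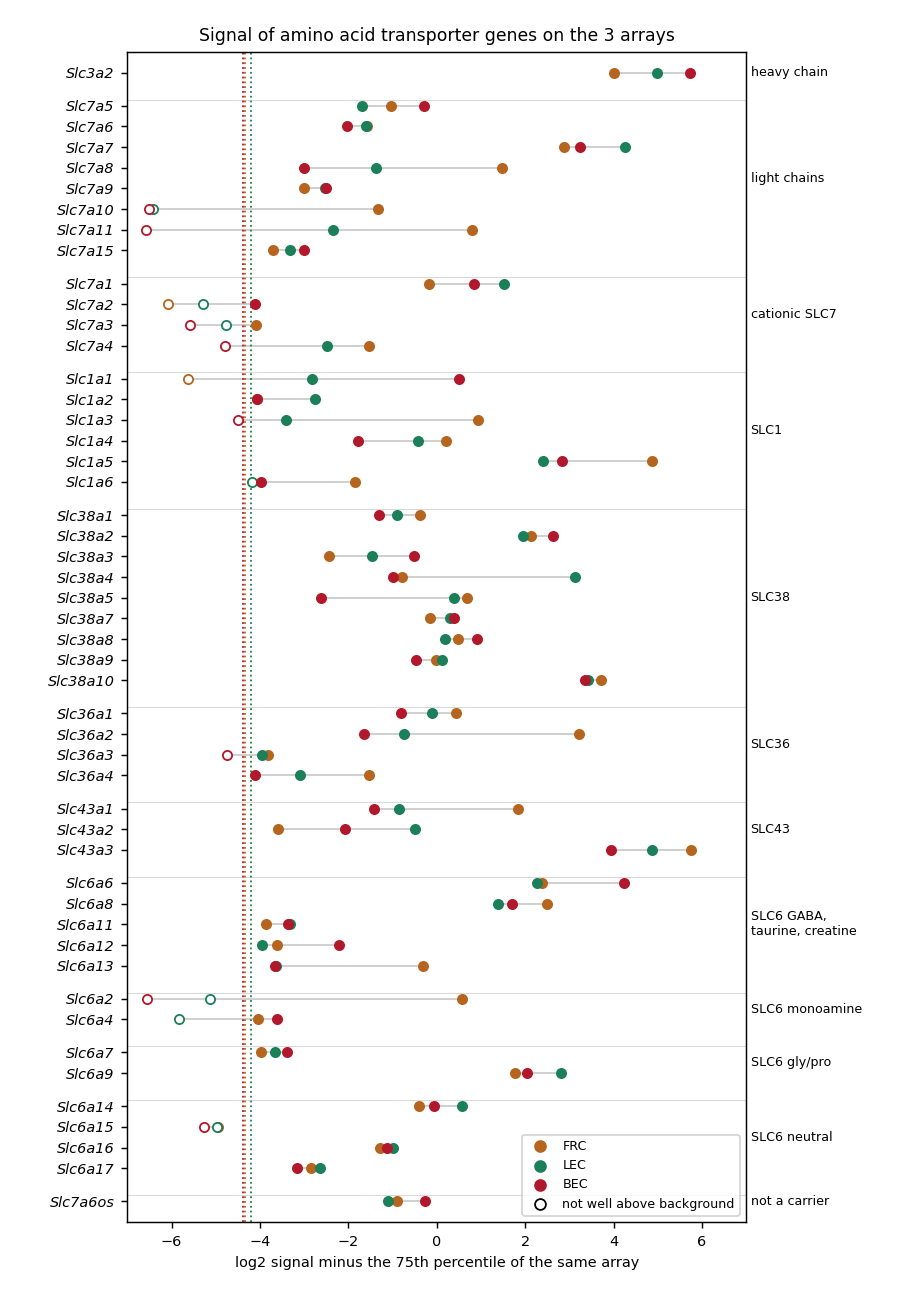
The level of each of the 49 members with a probe well above background on at least 1 array, with 1 point per array (FRC brown, LEC green, BEC red) on the horizontal axis in log2 units relative to the 75th percentile of that array, grouped by family; open points were not well above background and dotted lines mark the lowest level that was on each array. Levels can be compared along a row, which is 1 probe, and not between rows. Wide rows include Slc7a11, Slc1a1, Slc6a2, Slc1a3 and Slc36a2, and 15 of the 37 members measured on all arrays span less than 2-fold.

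Compared with either endothelial population, FRC had the larger share of transporters with clearly higher signal. A difference was called at 4-fold. Where every probe of a gene was too dim on the dimmer array, the floor of that array (or the probe's value, if higher) was used in its place, and the fold is written as at least that size. Between LEC and FRC, 48 members could be compared. Of these, 10 (20.8%) were at least 4-fold higher in FRC, where the share over all genes compared was 5.93%, and 2 (4.17%) were at least 4-fold higher in LEC, where the share over all genes was 4.89%. Between BEC and FRC, 49 could be compared. Here 13 (26.5%, all genes 7.57%) were at least 4-fold higher in FRC, and 1 (2.04%, all genes 6.59%) in BEC. The same FRC array stands in both comparisons, so they are not separate evidence. Between LEC and BEC, 45 could be compared, with 3 (6.67%, all genes 3.39%) at least 4-fold higher in LEC and 1 (2.22%, all genes 3.38%) in BEC; under array median scaling these counts were 2 and 2. With normexp background correction in place of the scanner's own, 7 members were higher in FRC than in LEC (14.6%, all genes 3.45%) and 7 higher in FRC than in BEC (14.3%, all genes 4.54%). The calls that did not pass 4-fold with it were those of Slc1a6, Slc6a13 and Slc7a10 against both endothelia, Slc43a2 between LEC and FRC, Slc1a5, Slc36a4 and Slc7a4 between BEC and FRC, and Slc7a11 between LEC and BEC.

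The middle of the member distribution lay nearer to that of all genes in the comparisons with FRC than between the endothelia, but not under every setting. With the mean of each gene's probes, the median was 0.06 over members against -0.04 over all genes for LEC minus BEC. It was then -0.23 against 0.03 for LEC minus FRC and -0.29 against 0.07 for BEC minus FRC. With dim probes not filtered, LEC minus BEC (0.15 against 0.10) lay nearer than LEC minus FRC (-0.10 against 0.11). With the brightest probe and the filter, the median log2 difference for LEC minus FRC was -0.17 over the members and 0.02 over all genes compared. For BEC minus FRC it was -0.23 against 0.09, and with the 10 members that have only a bound left out it was 0.16 against 0.10, so its sign depends on those members. For LEC minus BEC it was 0.40 against -0.07. At 2-fold, 12 members (25.0%, all genes 13.3%) were higher in FRC than in LEC and 7 (14.6%, all genes 13.0%) the other way. Likewise 16 (32.7%, all genes 16.5%) were higher in FRC than in BEC and 7 (14.3%, all genes 16.8%) the other way. Between LEC and BEC, 9 (20.0%, all genes 11.0%) were higher in LEC and 4 (8.89%, all genes 10.2%) in BEC.

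**Figure D2:**
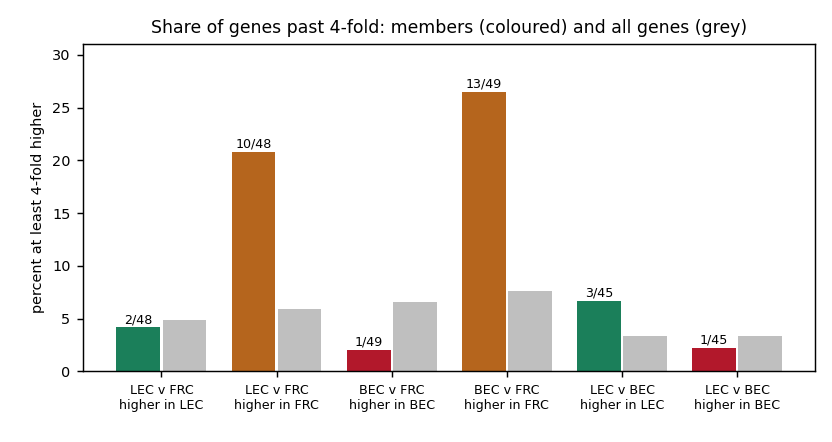
The percentage of members (coloured bars, with the number called over the number compared) and of all genes (grey bars) that were at least 4-fold higher in the named population, for each comparison and direction on the horizontal axis. The FRC bars stand at 20.8% and 26.5% of members against 5.93% and 7.57% of all genes; each population is 1 array, so the bars carry no error.

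Among the heteromeric carriers, the heavy chain and its light chains did not follow 1 order. Slc3a2, the heavy chain known as CD98 that carries most SLC7 light chains, had levels of 4.0 (FRC), 4.98 (LEC) and 5.73 (BEC). BEC exceeded FRC 3.32-fold and LEC exceeded FRC 1.97-fold. The second Slc3a2 probe gave 1.51, 1.55 and 2.26, with BEC again brightest and FRC and LEC 1.03-fold apart. Slc3a1, the heavy chain of the renal cystine carrier, was not well above background on any array.

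Of the light chains, 3 were called, all with FRC highest. Slc7a8, a carrier of large and small neutral amino acids that pairs with CD98, read 1.48 in FRC against -1.37 in LEC and -3.01 in BEC (probe at chr14:55341137-55341196; all probe positions are on mouse build mm9). That is 7.18-fold higher in FRC than in LEC and 22.5-fold higher than in BEC, with a 3.14-fold step between LEC and BEC. Slc7a10, a sodium-independent carrier of alanine, serine, cysteine and glycine, was at -1.32 in FRC and not well above background in LEC (-6.42) or BEC (-6.52), which puts FRC at least 7.33-fold and at least 8.31-fold higher. Other light chains had other orders. Slc7a7, which exports cationic amino acids in exchange for neutral ones with sodium, had levels of 2.88 (FRC), 4.25 (LEC) and 3.25 (BEC), 2.57-fold higher in LEC than in FRC. Slc7a5, the leucine-importing light chain often taken as the main partner of CD98 in growing cells, was at -1.04, -1.70 and -0.28, lowest in LEC and 2.68-fold higher in BEC than there. Slc7a6, Slc7a9 and Slc7a15 spanned less than 2-fold over the arrays, and the RefSeq probe of Slc7a15 passed nowhere.

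Slc7a10 and Slc36a2 are also known from fat cells, which surround the mesenteric node, so the adipocyte markers are given beside them. Of 8 such markers, 6 (FRC), 6 (LEC) and 7 (BEC) had a probe well above background, and their summed intensity was 18752, 2633 and 9569. The FRC sum came mostly from Lpl, which had levels of 5.51 (FRC), 2.20 (LEC) and 2.10 (BEC). Of the 7 compared between BEC and FRC, 2 were called in FRC (all genes 7.57%) and 4 in BEC (6.59%). The list did not move one way: Lpl and Plin1 were 10.6-fold and 12.5-fold higher in FRC than in BEC, while Cfd, Cidec and Retn were 32.1-fold, 17.7-fold and 10.5-fold higher in BEC than in FRC. Adipoq, which encodes adiponectin, read 0.38 in FRC against -0.66 in LEC and 0.80 in BEC, and Lep was not well above background on any array. The part of fat cell RNA in the levels of Slc7a10 and Slc36a2 was not tested.

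Slc7a11, the light chain that brings in cystine in exchange for glutamate and so feeds glutathione synthesis, stepped down from FRC to LEC to BEC. It had levels of 0.80 (FRC), -2.34 (LEC) and -6.58 (BEC), where it was not well above background (chr3:50170338-50170397). FRC was 8.81-fold higher than LEC and at least 36.2-fold higher than BEC, and LEC was at least 4.11-fold higher than BEC. All 4 of its probes were highest in FRC. The other probes gave -1.46, -4.02 and -6.47, then -2.92, -3.82 and -6.48, then -4.00, -6.50 and -6.65 for FRC, LEC and BEC. None of the 4 was well above background in BEC, and 3 of the 4 were in LEC. The LEC over BEC call is close to the threshold and depends on scaling and on the probe, at a log2 difference of 1.93 after quantile normalization and 0.21 with the mean of its probes.

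Slc7a11 is a textbook target of the transcription factor ATF4, which binds amino acid response elements in the promoters of transporter and biosynthesis genes when amino acids run short. The core letters TGATGNAA were searched on both strands of the RefSeq promoter windows (GRCm38.p6), which run from 250 bases before to 50 bases after a transcription start and hold 43 of the 61 members. These letters were present in windows of 3 of the 43 members (Slc7a11, Slc1a4 and Slc7a7), or 4 of 63 member windows (6.35%), against 3.97% of all 32851 windows. The window of Slc7a11 holds them on both strands, at 66 to 59 and at 47 to 40 bases before the start. The windows of these 3 members are shown 5′ to 3′ on the strand of the gene (all minus), with the matches in capitals. They share the letters, while Slc7a7 differs from the other members shown in its order across the arrays. The second Slc7a7 window overlaps the one shown and is left out. The windows lie at chr3:50443564-50443863, chr11:20332664-20332963 and chr14:54417895-54418194.
Slc7a11: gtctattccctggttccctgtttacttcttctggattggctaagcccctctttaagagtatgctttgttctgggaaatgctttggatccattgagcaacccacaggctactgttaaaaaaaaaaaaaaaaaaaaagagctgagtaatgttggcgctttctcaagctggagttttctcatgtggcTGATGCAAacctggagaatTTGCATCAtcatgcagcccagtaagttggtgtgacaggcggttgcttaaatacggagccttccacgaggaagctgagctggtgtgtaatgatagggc
Slc1a4: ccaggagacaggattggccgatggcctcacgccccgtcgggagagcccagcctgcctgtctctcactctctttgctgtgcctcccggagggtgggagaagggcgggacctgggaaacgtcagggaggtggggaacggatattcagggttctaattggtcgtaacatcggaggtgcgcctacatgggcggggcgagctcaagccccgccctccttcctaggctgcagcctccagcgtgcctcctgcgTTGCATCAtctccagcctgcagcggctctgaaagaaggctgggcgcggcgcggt
Slc7a7: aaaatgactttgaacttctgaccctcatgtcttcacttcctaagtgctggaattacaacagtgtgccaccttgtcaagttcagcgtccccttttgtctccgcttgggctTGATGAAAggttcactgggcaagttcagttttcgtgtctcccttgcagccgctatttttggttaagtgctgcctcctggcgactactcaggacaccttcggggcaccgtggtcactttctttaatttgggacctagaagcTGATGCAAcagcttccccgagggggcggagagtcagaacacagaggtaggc
Slc7a11 and Slc1a4 shared the order FRC, LEC, BEC, while Slc7a7 was highest in LEC, so the genes holding the letters did not all share an order. A match is a description of the sequence and says nothing of binding in these cells. The core letters of the antioxidant response element that NRF2 binds, TGACNNNGC, were present in 11 of 63 member windows (17.5%), against 12.4% of all windows, for 9 members (Slc36a1, Slc38a2, Slc43a1, Slc6a9, Slc6a11, Slc6a13, Slc6a16, Slc7a1 and Slc7a6).

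The cationic SLC7 carriers bring in arginine, lysine and ornithine. Slc7a1, the widely expressed arginine importer, read -0.18 in FRC against 1.52 in LEC and 0.84 in BEC. LEC exceeded FRC 3.25-fold and BEC exceeded it 2.03-fold, but the second probe gave -0.48, -0.42 and -1.10 with LEC 1.04-fold above FRC and BEC below it. The direction of BEC against FRC for Slc7a1 thus differs between probes. Slc7a4, an SLC7 member whose substrate is not settled, had levels of -1.54 (FRC), -2.49 (LEC) and -4.79 (BEC), where it was not well above background. FRC was 1.94-fold higher than LEC and at least 7.17-fold higher than BEC. Slc7a2, the inducible arginine carrier of macrophages, passed only in BEC (-4.11), and Slc7a3, a further arginine carrier, only in FRC (-4.09).

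In the SLC1 family, glutamate carriers split by cell type. Slc1a1, a neuronal and epithelial glutamate and cysteine carrier, was at -5.62 in FRC, where it was not well above background, -2.83 in LEC and 0.51 in BEC (chr19:28988332-28988391). BEC was at least 28.9-fold higher than FRC and 10.2-fold higher than LEC. No other member was called higher in BEC, over FRC or over LEC. The second Slc1a1 probe was at -6.61, -5.19 and -1.02 and was well above background in BEC alone, at least 9.04-fold above LEC.

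Slc1a3, the glutamate and aspartate carrier best known from astrocytes, had the opposite order. It read 0.93 in FRC against -3.41 in LEC and -4.50 in BEC, where it was not well above background (chr15:8584236-8584295). FRC was 20.2-fold higher than LEC and at least 39.5-fold higher than BEC. A second probe gave -3.54, -6.02 and -6.64 and passed in FRC alone, and the third passed nowhere. Slc1a6, a glutamate carrier of cerebellar neurons, was at -1.85 in FRC, -4.18 in LEC (not well above background) and -3.97 in BEC, so FRC was at least 5.05-fold higher than LEC and 4.36-fold higher than BEC.

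Slc1a2, the main glutamate carrier of forebrain glia, shows how much the choice of probe can matter. The probe that stands for the gene, being highest on average of its 5, had levels of -4.07 (FRC), -2.75 (LEC) and -4.06 (BEC), highest in LEC by 2.49-fold. That probe lies on the strand opposite to the gene. A probe on the strand of the gene, which bears a RefSeq accession, read -0.43 in FRC against -4.10 in LEC and -6.61 in BEC, 12.7-fold higher in FRC than in LEC and at least 15.4-fold higher than in BEC. A further gene-strand probe gave -1.84, -4.18 and -6.02, passing in FRC alone, with FRC at least 5.05-fold and at least 5.80-fold higher. The latter and the opposite-strand probe are shown as spotted, with their positions, because their orders across the arrays oppose each other.
Slc1a2, strand of the gene, chr2:102617706-102617765: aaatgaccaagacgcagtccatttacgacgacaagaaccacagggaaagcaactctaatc
Slc1a2, opposite strand, chr2:102584501-102584560: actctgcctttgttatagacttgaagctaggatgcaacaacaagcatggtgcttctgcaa
Of the remaining gene-strand probes, one was well above background in FRC alone, at -2.87, and the other was dim and nearly flat, at -3.86, -4.14 and -4.01, with FRC 1.22-fold above LEC and 1.11-fold above BEC. With a RefSeq probe of the gene's own strand in its place, a setting chosen after the data had been seen, Slc1a2 was 4-fold higher in FRC in both comparisons, and the calls on the FRC side came to 11 of 48 and 14 of 49.

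Both neutral exchangers of the SLC1 family were brightest in FRC. Slc1a5, the exchanger that brings glutamine into growing cells, had levels of 4.86 (FRC), 2.41 (LEC) and 2.84 (BEC) (chr7:17383359-17383418). FRC was 5.46-fold higher than LEC and 4.07-fold higher than BEC, the latter just past the threshold and at a log2 difference of -1.99 under array median scaling. Slc1a4, a carrier of serine, alanine and cysteine, read 0.20 in FRC against -0.42 in LEC and -1.79 in BEC, 3.97-fold higher in FRC than in BEC and 2.57-fold higher in LEC than in BEC. Its second probe put BEC lowest too, with FRC 1.90-fold higher.

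Among the SLC38 carriers, the called members were Slc38a4, on the LEC side, and Slc38a5, which was low in BEC. Slc38a4, a system A carrier best known from liver and placenta, had levels of -0.78 (FRC), 3.13 (LEC) and -1.0 (BEC) (chr15:96825482-96825541). LEC was 15.0-fold higher than FRC and 17.6-fold higher than BEC, while FRC and BEC were 1.17-fold apart. Its second probe was far dimmer, at -4.40, -4.00 and -5.11, and passed in LEC alone.

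Slc38a5, which moves glutamine, histidine, serine and glycine against protons, read 0.68 in FRC against 0.39 in LEC and -2.62 in BEC. FRC was 9.83-fold and LEC 8.07-fold higher than BEC, and FRC and LEC were 1.22-fold apart. The populations gated as gp38+ thus lay together and BEC apart. Slc38a3, a glutamine carrier of liver and kidney that also releases glutamine, ran the other way, with -2.43 (FRC), -1.46 (LEC) and -0.52 (BEC), 3.76-fold higher in BEC than in FRC. Slc38a2, the starvation-induced system A carrier, was at 2.12, 1.94 and 2.62, with BEC 1.60-fold above LEC. Slc38a7, Slc38a8, Slc38a9 (the lysosomal arginine sensor of mTORC1) and Slc38a10 each spanned less than 2-fold.

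Slc38a1, a system A glutamine carrier, had levels of -0.38 (FRC), -0.90 (LEC) and -1.30 (BEC), less than 2-fold apart. A second of its 5 probes, nearly as bright, gave 0.48, -0.39 and -2.69, which is 9.01-fold higher in FRC than in BEC. These probes share the order and differ in whether the FRC over BEC step passes 4-fold. A dimmer probe gave -4.11, -6.25 and -3.62, with BEC 1.40-fold above FRC.

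The proton-coupled SLC36 carriers move proline, glycine and alanine, Slc36a1 and Slc36a4 also at the lysosome. Slc36a2, a high-affinity carrier of proline and glycine, read 3.21 in FRC against -0.74 in LEC and -1.64 in BEC (chr11:54972134-54972193). FRC was 15.5-fold higher than LEC and 28.8-fold higher than BEC. Slc36a4, a carrier of proline and tryptophan, was at -1.53, -3.10 and -4.12, 2.97-fold higher in FRC than in LEC and 6.03-fold higher than in BEC, and its second probe, dim in BEC, gave 2.93-fold and at least 3.91-fold. Slc36a1 had the same order with smaller steps, at 0.44, -0.10 and -0.82, 2.39-fold higher in FRC than in BEC. Slc36a3 was dim on all arrays, at -3.82, -3.95 and -4.75. FRC was thus highest for all 4 members of the family, for Slc36a3 by 1.10-fold over LEC and close to the floor.

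The SLC43 facilitated carriers differed in both directions. Slc43a1, a carrier of leucine and other large neutral amino acids, had levels of 1.83 (FRC), -0.85 (LEC) and -1.42 (BEC) (chr2:84703269-84703328), 6.39-fold higher in FRC than in LEC and 9.47-fold higher than in BEC. Slc43a3, a relative that carries purine bases, read 5.76 in FRC against 4.88 in LEC and 3.93 in BEC, 3.54-fold higher in FRC than in BEC. Slc43a2, a further carrier of large neutral amino acids, was instead lowest in FRC, at -3.60, with -0.49 in LEC and -2.08 in BEC, so LEC was 8.62-fold higher than FRC and 3.01-fold higher than BEC. Its RefSeq probe also put LEC highest, at -3.56, -1.13 and -5.33, but there BEC was not well above background and lay at least 1.77-fold below FRC. The order of FRC and BEC for Slc43a2 thus depends on the probe.

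The SLC6 family held a monoamine carrier and a GABA carrier on the FRC side. Slc6a2, the noradrenaline transporter of sympathetic nerves, was at 0.57 in FRC and not well above background in LEC (-5.13) or BEC (-6.56) (chr8:95525166-95525225). FRC was at least 27.1-fold above LEC and at least 30.8-fold above BEC. Of 7 nerve and glia markers, 6 were compared with FRC. Of these 1, S100b, was called, higher in FRC than in LEC (all genes 5.93%) and than in BEC (7.57%). S100b had levels of 0.91 (FRC), -3.60 (LEC) and -4.27 (BEC). Sox10 was at -0.21, -0.15 and -0.09, and Gfap was not well above background on any array. The summed intensity of the 7 was 2513, 1326 and 2215, and the part of nerve or glial RNA in Slc6a2 was not tested. Slc6a4, the serotonin transporter, was near the lowest level that counts in FRC (-4.04) and BEC (-3.61), and Slc6a3, the dopamine transporter, passed nowhere.

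Slc6a13, a GABA and taurine carrier of meninges, liver and kidney, read -0.32 in FRC against -3.64 in LEC and -3.65 in BEC (chr6:121287577-121287636), 9.94-fold and 10.0-fold above LEC and BEC in FRC. A second probe that shares 40 of its bases gave -0.04, -5.75 and -4.27, with FRC at least 17.9-fold above LEC and 18.8-fold above BEC. The neighbouring gene Slc6a12, a betaine and GABA carrier, had BEC highest, at -3.62, -3.95 and -2.21, 2.66-fold above FRC and 3.33-fold above LEC. Slc6a6, the taurine carrier, had levels of 2.37 (FRC), 2.27 (LEC) and 4.24 (BEC). BEC exceeded FRC 3.67-fold and LEC 3.92-fold, just short of the threshold and past it under array median scaling in the latter comparison. The second Slc6a6 probe also had BEC highest, by 1.62-fold and 1.82-fold.

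Of the other SLC6 members, Slc6a8, the creatine carrier, read 2.50 in FRC against 1.38 in LEC and 1.71 in BEC, 2.18-fold higher in FRC than in LEC. Slc6a9, the glycine carrier GLYT1, was at 1.78, 2.82 and 2.03, 2.06-fold higher in LEC than in FRC. Slc6a7, Slc6a11, Slc6a14, Slc6a16 and Slc6a17 spanned less than 2-fold, of which Slc6a7 and Slc6a11 were dim throughout, with highest levels of -3.40 and -3.31. The 12 members that passed on no array included Slc1a7, Slc3a1, Slc6a3, Slc6a18, Slc6a19, Slc7a12, Slc7a13 and Slc38a11. Several of these are known from kidney, gut or retina, and for them the arrays give no order. A second Slc6a17 probe was not well above background in FRC and put LEC higher, at -4.64, -2.49 and -3.95, which is at least 3.59-fold above FRC and 2.74-fold above BEC. Its remaining probe passed in BEC alone, and the second Slc6a14 probe passed nowhere. Slc7a6os was at -0.90, -1.10 and -0.27.

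**Figure D3:**
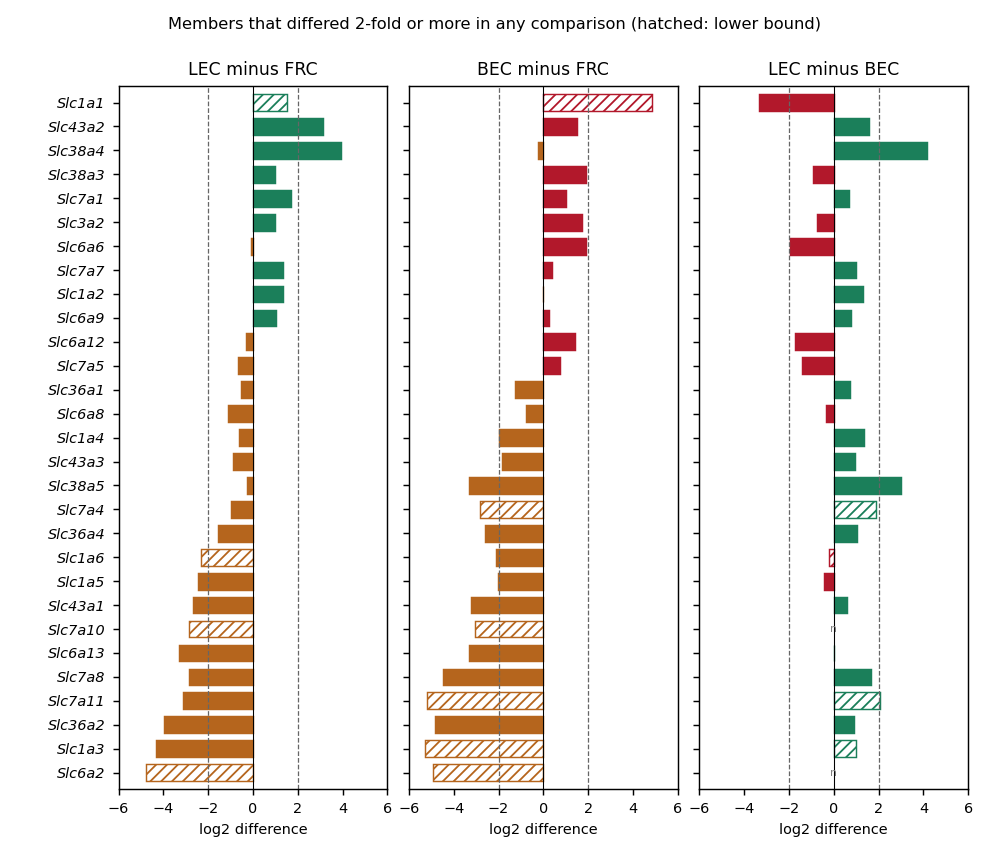
The log2 difference of each member that differed at least 2-fold in any comparison, with 1 panel per comparison, bars coloured by the brighter population, hatched bars for lower bounds, dashed lines at 4-fold and n where a member was not compared. The lower rows, from Slc6a2 up to Slc1a6, extend to the FRC side in both of the first panels, which share the FRC array, and Slc38a4, Slc43a2 and Slc1a1 extend the other way.

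Over the 37 members whose own probe was well above background on all 3 arrays, FRC was highest for 14 (37.8%, all genes 33.1%), LEC for 11 (29.7%, all genes 27.5%) and BEC for 12 (32.4%, all genes 39.3%). Their range over the arrays had a median of 1.32 on the log2 scale, against 0.80 over 15595 genes measured likewise. It was under 2-fold for 15 members (40.5%), against 60.0% of all genes. Members thus varied more over the arrays than the middle of all genes, while FRC, LEC and BEC came first at similar rates. These rates leave out members dim on any array. Among those were Slc1a3, Slc1a6, Slc6a2, Slc7a4, Slc7a10 and Slc7a11, called higher in FRC, and Slc1a1, called higher in BEC.

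Probes of 1 gene often gave different sizes. For members with several probes well above background on both arrays, the log2 differences of the brightest such probe and the next brightest were compared. Any further probes were left out, so the full spread can be wider. The gap had a median of 0.58 for LEC minus FRC (13 members), 0.91 for BEC minus FRC (11 members) and 0.64 for LEC minus BEC (10 members). Over all genes the medians were 0.29, 0.42 and 0.34. The widest member gap was that of Slc1a2, at 4.99 for LEC minus FRC, which includes its opposite-strand probe, followed in BEC minus FRC by Slc38a1 at 2.26. With 31 members read by 1 probe each, the same check was not possible for them.

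**Figure D4:**
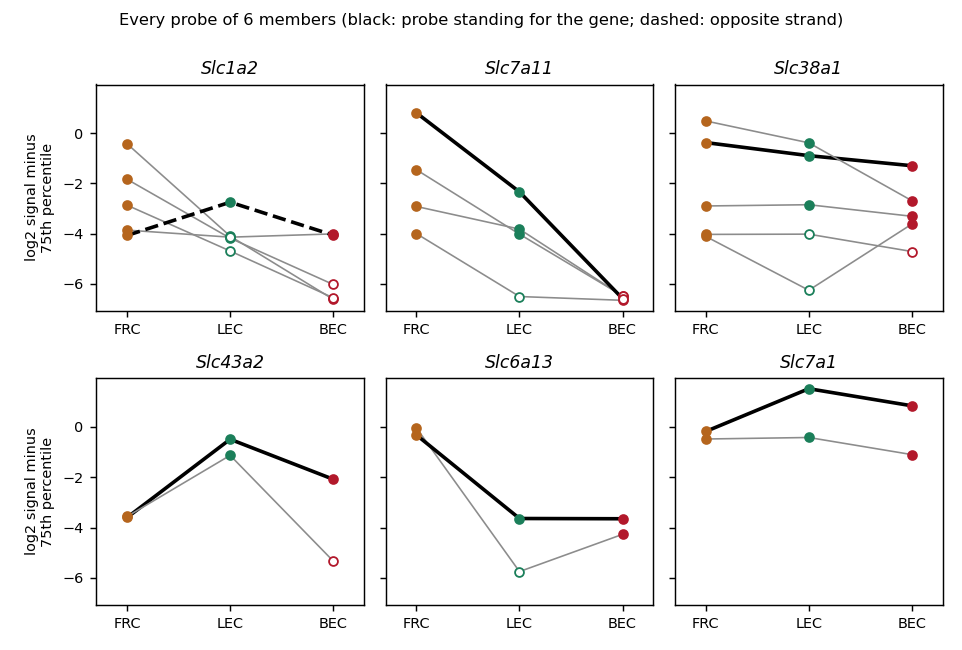
Levels of every probe of 6 members on the FRC, LEC and BEC arrays, in log2 units relative to the 75th percentile; the black line is the probe that stands for the gene, the dashed line lies on the opposite strand and open points were not well above background. The 4 Slc7a11 probes all step down from FRC, the Slc1a2 lines cross, and the Slc43a2 probes part in BEC (-2.08 and -5.33).

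Several members are neighbours in the genome, and some of these neighbours shared an order while others did not. Slc38a1, Slc38a2 and Slc38a4 lie next to each other on chromosome 15 in the RefSeq gene order, and Slc38a4 alone was LEC-high, with its probe 297.0 kb from that of Slc38a2. Slc6a12 and Slc6a13 are adjacent on chromosome 6 with probes 28.0 kb apart, 1 highest in BEC and the other in FRC. Slc36a1, Slc36a2 and Slc36a3 are adjacent on chromosome 11 and each was highest in FRC, by differing amounts. Slc43a1 and Slc43a3, with Rtn4rl2 between them on chromosome 2, both had the order FRC, LEC, BEC.

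Beside the transporters, genes of amino acid handling were read from 6 lists chosen by function. Of 27 genes of the ATF4 axis, 1 was at least 4-fold higher in FRC than in LEC (all genes 5.93%) and 2 the other way (4.89%). Against BEC, 7 were higher in FRC (all genes 7.57%) and 3 in BEC (6.59%). The members did not move together. Phgdh, which starts serine synthesis, had levels of 2.60 (FRC), 0.82 (LEC) and -0.44 (BEC), 8.23-fold higher in FRC than in BEC. Pycr1, the last step of proline synthesis, was 7.81-fold higher in FRC than in BEC, the transcription factor gene Atf5 9.60-fold and the lipoprotein receptor gene Vldlr 12.1-fold. Other genes of the axis were higher in endothelium. Ppp1r15a, which reverses the block on translation, exceeded FRC 10.5-fold in LEC and 20.3-fold in BEC, and Trib3, an inhibitor of ATF4, did so 5.96-fold and 5.27-fold. The stress-induced factor gene Atf3 exceeded FRC 5.54-fold in BEC. Nupr1 was 6.61-fold higher in LEC than in BEC. The list median was -0.06 for LEC minus FRC and -0.23 for BEC minus FRC.

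The glutathione list, the use to which cystine from Slc7a11 is put, had its called genes in FRC in the comparisons with FRC. Against LEC, 5 of 19 genes were at least 4-fold higher in FRC (all genes 5.93%) and none the other way (4.89%). Against BEC, 4 of 19 were (all genes 7.57%) and none the other way (6.59%). Gpx8, a peroxidase of the endoplasmic reticulum, was 42.3-fold higher in FRC than in LEC and 8.45-fold higher than in BEC. The secreted peroxidase gene Gpx3 was 15.2-fold and 29.8-fold higher, and Ggt5, which cleaves extracellular glutathione, 15.5-fold higher in FRC than in LEC and 2.55-fold higher than in BEC. Gpx7 was 7.19-fold higher in FRC than in LEC, and Ggt7 was 5.54-fold higher in FRC than in BEC. Between the endothelia, Ggt5 and Gpx8 were 6.10-fold and 5.0-fold higher in BEC than in LEC, and Ggt1 in LEC lay at least 5.99-fold above BEC. The list median was 0.01 for LEC minus FRC and -0.47 for BEC minus FRC, so the other genes of the list were near the middle of all genes in the former.

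Among 27 enzymes of glutamine, arginine, branched-chain and tryptophan use, calls went both ways. Of these, 23 were compared between LEC and FRC, 23 between BEC and FRC and 21 between LEC and BEC. LEC against FRC gave 2 each way (all genes 4.89% in LEC and 5.93% in FRC). BEC against FRC gave 4 in BEC and 3 in FRC (all genes 6.59% and 7.57%). LEC against BEC gave 1 each way (all genes 3.39% in LEC and 3.38% in BEC). Ass1, which recycles citrulline to arginine, read -2.10 in FRC against -1.97 in LEC and 1.65 in BEC, 13.4-fold and 12.2-fold higher in BEC. Nos3, the endothelial nitric oxide synthase that uses arginine, exceeded FRC at least 167.1-fold in LEC and at least 142.9-fold in BEC. Odc1, which turns ornithine into polyamine, exceeded FRC 5.02-fold in BEC, while Oat, which turns ornithine towards proline, was 4.84-fold and 7.17-fold higher in FRC than in LEC and BEC. Arginine-handling genes thus differed in opposite directions. Ido1, which degrades tryptophan, exceeded FRC 5.22-fold in LEC and 5.66-fold in BEC. Bcat1, which starts branched-chain amino acid breakdown, was well above background in FRC alone, at least 8.95-fold above LEC and at least 10.1-fold above BEC. Dbt, a subunit of the branched-chain keto acid dehydrogenase, was 4.96-fold higher in FRC than in BEC, and the glutaminase gene Gls2 was 6.17-fold higher in LEC than in BEC.

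Of 28 genes of mTORC1 amino acid sensing on the array, 26 were compared in each pair. Of these 1 was called, the arginine sensor gene Castor1, 4.89-fold higher in BEC than in FRC (all genes 6.59%). Of 22 other carriers of amino acids and peptides on the array, 17 were compared between LEC and FRC and 18 between BEC and FRC. Of these, 2 were called higher in FRC than in LEC (all genes 5.93%). The same 2 were called higher in FRC than in BEC (all genes 7.57%), and none the other way. They were Slc15a3, a lysosomal peptide and histidine carrier (4.15-fold over LEC, 4.01-fold over BEC), and Slc16a10, a carrier of aromatic amino acids (at least 5.93-fold and at least 6.72-fold). Of 11 regulators and partners, 10 were compared with FRC, and 3 were called in LEC over FRC (all genes 4.89%) and 1 in BEC over FRC (6.59%). These were the kinase genes Sgk3 (8.50-fold) and Sgk1 (4.15-fold), whose products raise the surface level of several carriers, and the ubiquitin ligase gene Nedd4l (7.32-fold), whose product lowers it. Sgk1 was 12.3-fold higher in BEC than in FRC.

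**Figure D5:**
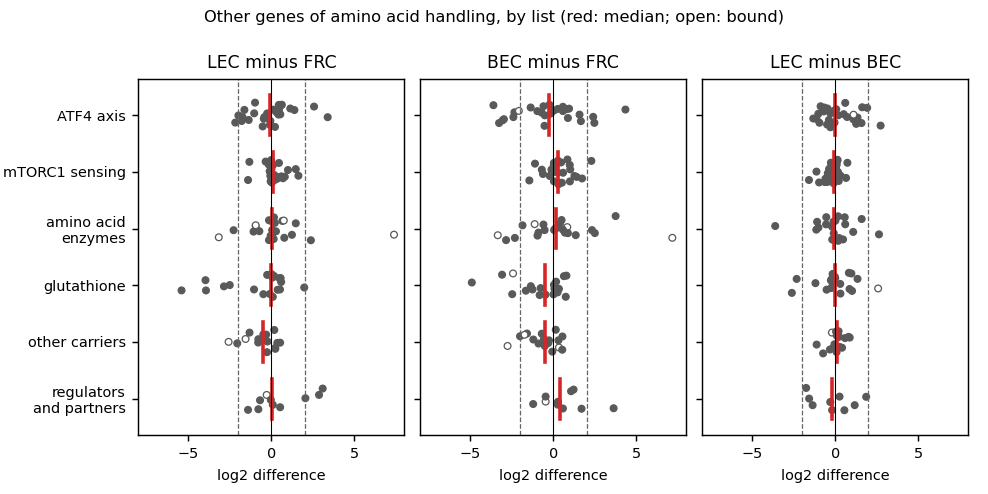
Log2 differences of the genes of 6 lists of amino acid handling (rows) in the 3 comparisons (panels); each point is 1 gene, open points are bounds, red bars are list medians and dashed lines mark 4-fold. List medians lie near 0, from -0.49 to 0.43, and points past the left line in the glutathione row are genes higher in FRC.

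Markers of vessel wall and of mesothelial and epithelial cells are given beside the FRC-high carriers. These cells, like FRC, lack CD31. The FRC gate also asked for gp38, and which of these cells bear gp38 was not determined here. Of 9 pericyte and smooth muscle markers, 4 were at least 4-fold higher in FRC than in LEC (all genes 5.93%) and 4 than in BEC (7.57%). Of the same list, 1 (Mcam) was higher in LEC and in BEC than in FRC. Their summed intensity, not scaled between arrays, was 32244 in FRC, 17491 in LEC and 32603 in BEC. Mcam and Acta2 were the brightest of them in BEC, at 5.37 and 5.17, and Mcam was at -0.57 in FRC. Abcc9 and Kcnj8, which form a potassium channel of pericytes, were 17.7-fold and 6.97-fold higher in FRC than in BEC, while Acta2 was within 1.24-fold of it. Of 7 mesothelial and epithelial markers, none was called between LEC and FRC (all genes 4.89% in LEC and 5.93% in FRC). Against BEC, 4 were at least 4-fold higher in FRC (all genes 7.57%), namely Msln (5.92-fold), Upk3b (12.9-fold), Krt8 (7.55-fold) and Krt18 (5.25-fold). Their summed intensity was 4034 (FRC), 1561 (LEC) and 1141 (BEC). The part of these cells in the FRC levels of Slc1a3, Slc6a2, Slc6a13, Slc7a11 and Slc36a2 was not tested.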

How the data were processed

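Total RNA of each sorted population was amplified in 1 round and hybridised to 1 single-colour Agilent mouse array per population, on 1 slide. The deposited scanner files hold intensity values from Agilent Feature Extraction 10.7.3.1 (named in the submitters' processing notes). They are, per the file headers, background-subtracted and detrended within the array and not scaled between arrays. The authors' deposited value table, also linear intensity, has columns of nearly equal distribution and was used as an alternative. No probe was saturated.

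From these, outlier spots were left out (18 probes), replicate spots averaged, and log2 values taken relative to the 75th percentile of each array. Probes were taken as well above background where the scanner software marked the majority of their spots so. Each gene is represented by the probe whose mean log2 value was highest. Comparisons took genes with at least 1 probe well above background on an array of the pair, and a gene was called at 4-fold if its own probe was well above background on the brighter one. Gene names for the whole-array counts were updated through RefSeq accessions. Probe positions are on mm9 per the file headers, and which part of a gene a probe covers was not determined here. Promoter windows are from RefSeq (GRCm38.p6). Every called member is named, as is every member 2-fold or more apart. Up to 4 genes per pathway list and direction are named by size, measured on both arrays. Bcat1, Gclc, Gclm, Ggt1, Gss, Nos3, Slc16a10 and the markers printed were added after their values were seen. Members and lists were chosen with earlier results of these data known. The number of arrays limits the precision. The comparison step was tested on simulated data. Python 3.11.15 and, for normexp and quantile normalization, limma 3.58.1 in R 4.3.3 were used. Alternatives were normexp, array median and quantile scaling, the deposited values, no filter on dim probes, the mean of a gene's probes, a 2-fold threshold and, added later, a RefSeq probe of the gene's own strand.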

Additional observations from a re-analysis of the deposited data

How the results depend on the processing

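With 1 array per population nothing can be left out, and the limit is the number of arrays. No paired analysis was possible because each population has 1 array and the result comes from no test. Of the 30 calls at 4-fold, 19 were kept under every setting that keeps the threshold and none reversed. Normexp kept 19, array median scaling 28, the mean of probes 29, quantile normalization and the deposited values 29 each, and the unfiltered values and the RefSeq probe 30 each. Normexp with its offset of 50 pulls dim values together and moved the median of all genes for LEC minus FRC from 0.02 to 0.13. It gave 1 member higher in LEC than in FRC, and 8 calls between BEC and FRC, 7 of them in FRC. Between LEC and BEC, array median scaling gave 2 members each way in place of 3 and 1, with Slc6a6 added in BEC, the unfiltered values gave 2 in BEC, and the RefSeq probe gave 5 in LEC. At 2-fold the totals were 19 between LEC and FRC (7 in LEC), 23 between BEC and FRC (7 in BEC) and 13 between LEC and BEC (9 in LEC, 4 in BEC). Among the differences of 2-fold or more, those that changed sign, none of them called, were Slc1a2 in LEC minus FRC, from 1.32 to -1.36 with the mean of probes and -3.67 with the RefSeq probe, and Slc43a2 in BEC minus FRC, from 1.52 to -0.12 and -1.77. Apart from the probe changes, the causes were not tested.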
